A study of Drosophila melanogaster with 9 samples.

Results

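Galt, Galk and UGP are 3 of the 17611 genes in the count table and encode enzymes of galactose and UDP-sugar metabolism. Their rows were found by FlyBase identifier, and they were picked with their levels in these libraries already known. Their values in all 3 groups are therefore given as a description, with intervals and no test. In the Leloir pathway, galactokinase (Galk) phosphorylates galactose, and galactose-1-phosphate uridylyltransferase (Galt) exchanges the phosphorylated sugar with UDP-glucose to give UDP-galactose and glucose-1-phosphate. UGP makes UDP-glucose from glucose-1-phosphate and UTP. Loss of human GALT causes classic galactosemia, in which galactose-1-phosphate builds up.

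The libraries were poly-A selected RNA-seq, given by the paper and labels as brains of Drosophila melanogaster L3 larvae, with 3 libraries in each of 3 groups. The genotypes below are those that the paper and labels give. The yw group (y1 w1118) was the wild-type control. The L(3)mbt mutants carried a temperature-sensitive allele of l(3)mbt (L(3)mbt ts1), kept as a stock over the TM6b balancer. The Lint-O mutants carried a CRISPR/Cas9 deletion allele of the X-linked gene Lint-O (Lint-O KO) made on the y1 w1118 background and kept over FM7. L(3)mbt is a chromatin repressor with MBT repeats. The labels put larvae of all groups at 29 °C, the restrictive condition, so yw and Lint-O mutant larvae had the same heat exposure. The labels do not state zygosity or the number of animals pooled. Each mutant group is 1 allele, and the L(3)mbt stock is not described as sharing the y1 w1118 background.

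Library totals were between 18681293 and 31519287 counts. The gene l(3)mbt had 3204 ± 252 normalized counts in yw (SD, n = 3, as for all values below) and 1795 ± 98.5 in L(3)mbt mutants (the protein was not measured here). Lint-O had 506 ± 4.24 in yw and 84.1 ± 4.44 in Lint-O mutants. In L(3)mbt mutants Lint-O had 576 ± 4.10 and was not called against yw. In Lint-O mutants l(3)mbt had 4222 ± 284 and was called higher than in yw (log2 fold change 0.40, DESeq2 adjusted p = 8.11e-07). Several defining markers of the labelled tissue were low in all groups and others were not. Of 7 neuroblast markers, 4 (dpn, ase, klu and grh) were under 1 CPM (counts scaled to library totals) in every library, as were 4 of 7 neuron markers (nSyb, brp, Syt1 and fne) and 1 of 5 glial markers (repo). Over 10 CPM in every library were the neuroblast marker insc, the neuron markers elav, Syx1A and cac, and the glial markers moody, loco and nrv2. The summed glial list was 313 to 344 CPM in yw, 293 to 298 in L(3)mbt mutants and 298 to 317 in Lint-O mutants, and the summed neuron list was lower in yw (146 to 213 CPM) than in L(3)mbt mutants (229 to 278) and Lint-O mutants (245 to 274). Nearly all of the neuron sum is elav (48.0 to 74.1 CPM over the 9 libraries), Syx1A (55.5 to 81.2) and cac, which ranged most (41.7 to 161). All 4 ovarian somatic markers (tj, fs(1)Yb, Fas3 and lncRNA:flam) were over 10 CPM in every library, and their summed level was 571 to 809 CPM in yw, 629 to 722 in L(3)mbt mutants and 727 to 793 in Lint-O mutants. All 4 fat body markers were under 1 CPM. Of 4 hemocyte markers, Hml and NimC1 were under 1 CPM in every library, srp was over 10 CPM in every library and Pxn ranged from 7.44 to 18.8 CPM. The labels also name the yw columns EGFP, and a GFP siRNA was the control in the paper's RNA-seq of cultured ovarian somatic cells. Whether the libraries match the labelled tissue and genotypes was not tested. All 9 libraries shared this marker pattern, so no comparison could be made without it, and the part of these markers in the results was not tested.

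Galt was the member that differed between groups. The gene (FBgn0263200) is on the minus strand of chromosome 2L at positions 6666264 to 6668033 (dm6), with 2 transcripts and 1484 exon bases, none of which is shared with another gene. Its normalized counts, scaled by DESeq2 size factors, were 901.1, 1023 and 1075 in the yw libraries, 131.1, 133.0 and 156.9 in L(3)mbt mutants, and 509.1, 543.6 and 603.4 in Lint-O mutants. The 3 groups did not overlap: every L(3)mbt mutant library was below every Lint-O mutant library, and these were below every yw library. Galt was picked with these values known, and the share of all genes whose groups separate in this way was not computed. Raw counts behind these values were 127 to 191 in L(3)mbt mutants, 490 to 522 in Lint-O mutants and 836 to 1412 in yw.

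The mean fell from 999.7 ± 89.2 in yw to 140.3 ± 14.4 in L(3)mbt mutants, a log2 fold change of -2.83 (SE 0.12, 95% interval -3.06 to -2.60), or 7.11-fold lower. In Lint-O mutants it was 552 ± 47.7, a log2 fold change of -0.86 (SE 0.10, 95% interval -1.07 to -0.66), or 1.82-fold lower. In the same fits, 12.6% of 10687 tested genes were called lower in L(3)mbt mutants and 7.52% of 10422 in Lint-O mutants, at an adjusted p under 0.01. Among 8933 genes with mean normalized counts of 10 or more, only 4 had a lower log2 fold change than Galt in L(3)mbt mutants and 74 in Lint-O mutants. In these bulk libraries, fewer cells that express Galt and less Galt RNA per cell cannot be told apart. Both comparisons use the same 3 yw libraries.

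Galt was 3.91-fold lower in L(3)mbt mutants than in Lint-O mutants (log2 fold change -1.97, SE 0.12, 95% interval -2.21 to -1.73). In this comparison 5.71% of 9097 tested genes were called lower, and 4 of the 8933 genes had a lower log2 fold change than Galt.

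Galk, the kinase of the first step, was nearly level across the groups. It lies on chromosome 3L at 8982212 to 8986091 (FBgn0263199, minus strand, 4 transcripts), and 25.1% of its exon bases are shared with other genes. Its normalized counts were 1224, 1213 and 1245 in yw, 1283, 1162 and 1272 in L(3)mbt mutants, and 1289, 1257 and 1204 in Lint-O mutants. The groups overlapped. The log2 fold change against yw was 0.01 (SE 0.07, 95% interval -0.13 to 0.15) in L(3)mbt mutants and 0.03 (SE 0.07, 95% interval -0.11 to 0.17) in Lint-O mutants. Between the mutants it was -0.01 (95% interval -0.15 to 0.13).

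UGP, the pyrophosphorylase that makes UDP-glucose, lies on chromosome 3L at 9350867 to 9358935 (FBgn0035978, minus strand, 4 transcripts, 21.37% of exon bases shared). Its normalized counts were 2086, 2017 and 2180 in yw, 1977, 1950 and 2061 in L(3)mbt mutants, and 2111, 2001 and 2042 in Lint-O mutants. These groups overlapped too. The log2 fold change against yw was -0.07 (SE 0.06, 95% interval -0.19 to 0.05) in L(3)mbt mutants and -0.03 (SE 0.06, 95% interval -0.15 to 0.09) in Lint-O mutants. Between the mutants it was -0.04 (95% interval -0.16 to 0.08). The intervals of Galk and UGP contain 0 and leave room for changes of up to about the size of their bounds.

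The order of the 3 enzymes by level differed between yw and both mutants through Galt. Per kilobase of exon that no other gene covers and scaled to library totals (RPKM), the levels in yw were 37.2 ± 1.14 for UGP, 28.4 ± 2.35 for Galt and 22.0 ± 0.118 for Galk, with no overlap between neighbours in that order. In L(3)mbt mutants UGP stood at 37.0 ± 0.815 RPKM, Galk at 23.1 ± 1.18 and Galt at 4.15 ± 0.395. In Lint-O mutants they stood at 37.8 ± 1.03, 23.2 ± 0.877 and 16.2 ± 1.35 in the same order. The ratio of Galt to Galk RPKM was 1.29 ± 0.109 in yw, 0.18 ± 0.0169 in L(3)mbt mutants and 0.703 ± 0.0855 in Lint-O mutants. The ratio of Galk to UGP stayed between 0.574 and 0.653 in all 9 libraries.

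**Figure D1:**
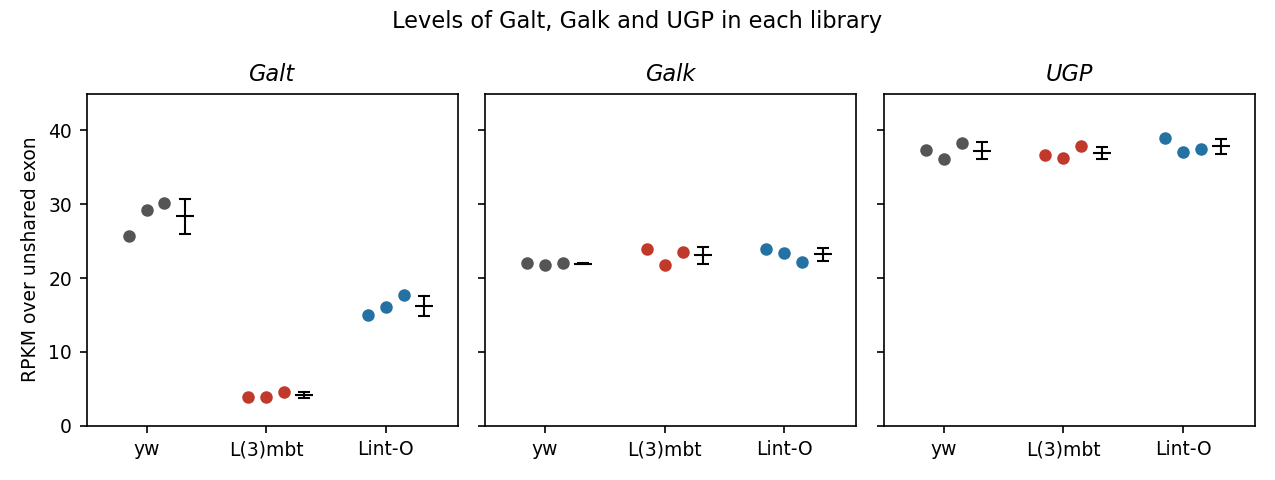
RPKM over unshared exon of Galt, Galk and UGP (y axis) in each library (points) of the 3 groups (x axis), with bars for mean and SD of 3 libraries. Galt drops from 28.4 in yw to 16.2 in Lint-O mutants and 4.15 in L(3)mbt mutants, while Galk and UGP lie between 21.8 and 39.0 in every library.

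Galt lies inside another gene. It occupies intron 2 (6665792 to 6668341) of cup, which runs on the plus strand from 6663664 to 6674780 and encodes an eIF4E-binding translational repressor of oogenesis. The level of cup could not be read, because all of its exon bases are shared with CG34310 and the table holds 0 counts for it in every library. Spn27A, which encodes a serine protease inhibitor of the melanization cascade, lies on the minus strand in intron 5 of cup (6670514 to 6674300), and the 265 exon bases that CG34310 shares with no gene lie in that same intron. All 73 protein-coding genes that opposite-strand exons alone cover in full had no counts, against 15.1% of 9361 genes without overlap. Reads were thus assigned without regard to strand, and reads from an unspliced cup transcript could not be told apart from those of Galt, Spn27A or CG34310. Their share was not tested.

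Spn27A and CG34310 were below yw in both mutants, as Galt was. Spn27A had 1580 to 1717 normalized counts in yw, 717.2 to 770.7 in L(3)mbt mutants and 1134 to 1154 in Lint-O mutants. Its groups did not overlap, a trait whose share over all genes was not computed. Its log2 fold change was -1.15 (SE 0.07, DESeq2 adjusted p = 9.13e-56) in L(3)mbt mutants and -0.54 (SE 0.07, adjusted p = 4.23e-13) in Lint-O mutants. CG34310 had 434.4 to 471.2 normalized counts in yw, 156.0 to 166.0 in L(3)mbt mutants and 230.3 to 242.8 in Lint-O mutants. Its log2 fold change was -1.49 (SE 0.12, DESeq2 adjusted p = 9.68e-33) in L(3)mbt mutants and -0.92 (SE 0.12, adjusted p = 1.59e-13) in Lint-O mutants. Both were also lower in L(3)mbt mutants than in Lint-O mutants, by a log2 fold change of -0.61 for Spn27A (DESeq2 adjusted p = 8.02e-15) and -0.56 for CG34310 (adjusted p = 0.000149).

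The next gene, cort, which encodes an anaphase-promoting complex activator of female meiosis, was not called. It had 86.1 ± 7.35 normalized counts in yw, 89.4 ± 3.38 in L(3)mbt mutants and 97.3 ± 1.53 in Lint-O mutants, and its log2 fold change was 0.05 and 0.17 (DESeq2 adjusted p = 0.869 and 0.584). A window of 20 kb on each side of Galt, chosen after these values were seen and so given without tests, holds 14 other genes. CG13771, which starts beside cup and is transcribed away from it, had 3 to 6 raw counts in the yw libraries, 290 to 470 in L(3)mbt mutants and 133 to 198 in Lint-O mutants. Its log2 fold change was 6.27 (SE 0.41) and 5.22 (SE 0.42), opposite in sign to the values of Galt, Spn27A and CG34310 a few kilobases away. CG31636 was likewise above yw, at 0.83 (SE 0.22) and 1.04 (SE 0.22), and Tsp, whose far end reaches into the window, was at 1.05 (SE 0.25) and 0.32 (SE 0.26). CG31633 stood at -0.42 and -0.17, CG31635 at -0.30 and 0.06, and Tango1 at -0.23 and -0.09. Ube4A, Nse1 and Nhe3 lay between -0.11 and 0.18 in both mutants, and CG11327 had fewer than 2 normalized counts on average in each group.

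**Figure D2:**
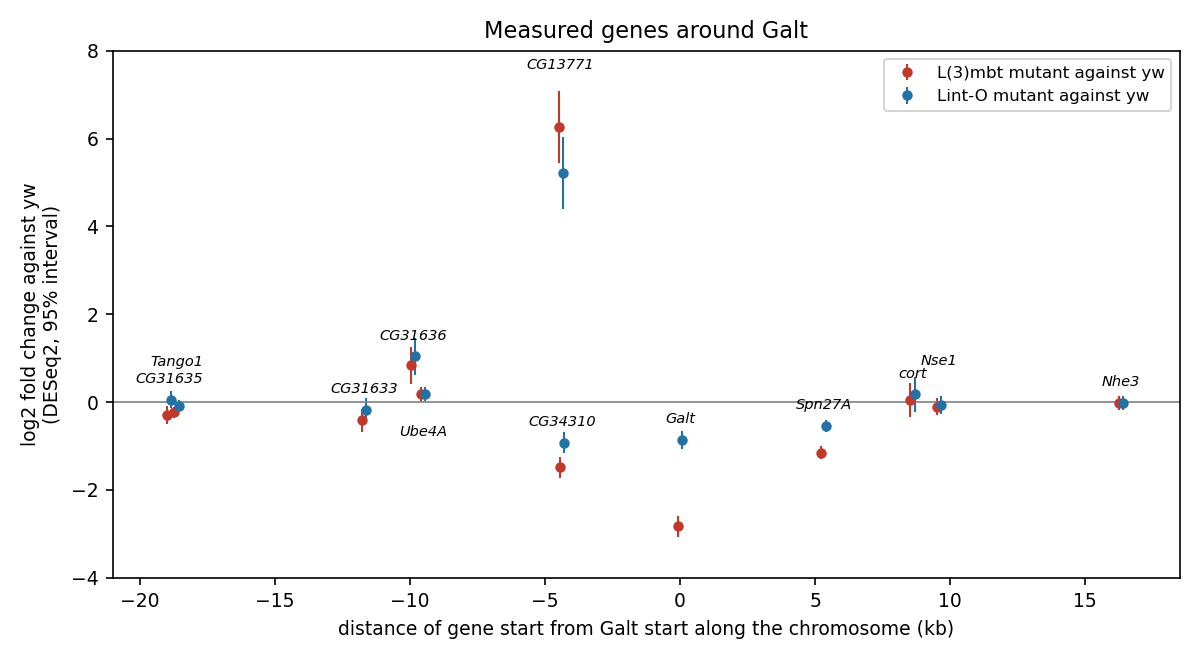
Log2 fold change against yw with its 95% interval (y axis) of the genes with a fitted and adjusted value whose start lies within 20 kb of the Galt start (x axis, kb), in L(3)mbt mutants (red) and Lint-O mutants (blue). Galt, Spn27A and CG34310 lie below 0, CG13771 far above it at 6.27 and 5.22, and Nse1 and Nhe3 next to 0.

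Of the genes beside Galk none was called against yw, and beside UGP 2 were called in L(3)mbt mutants. Over all tested genes, 18.1% were called higher and 12.6% lower in L(3)mbt mutants. Next to Galk, CG5068 had log2 fold changes of 0.16 and 0.12 and CG5644 of 0.20 and -0.35, while CG13314 and CG5280 had mean normalized counts under 4. Next to UGP, PGRP-LF, which encodes a membrane-bound peptidoglycan recognition protein, rose from 54.3 ± 6.80 in yw to 120.1 ± 6.21 in L(3)mbt mutants (log2 fold change 1.14, SE 0.22, DESeq2 adjusted p = 1.67e-06) and stood at 57.0 ± 7.05 in Lint-O mutants. Svip, whose start lies 63 bases from UGP, fell from 797.8 ± 34.3 to 574.7 ± 48.1 in L(3)mbt mutants (log2 fold change -0.47, SE 0.10, DESeq2 adjusted p = 3.05e-05) and was not called in Lint-O mutants (-0.20). The span of PGRP-LF overlaps that of UGP, and CG32040 lies within it. CG32040 had means of 4.36, 7.67 and 8.87 in yw, L(3)mbt mutants and Lint-O mutants and was not called. PGRP-LC had means of 2.45, 0.58 and 1.23 and was not tested.

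Pgm1, the phosphoglucomutase that passes glucose-1-phosphate on to glucose-6-phosphate, did not follow Galt. Its level per length was 102, 108 and 108.3 RPKM in yw, L(3)mbt mutants and Lint-O mutants, and it was not called (log2 fold changes 0.02 and 0.03).

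The mutarotases, which convert the anomers of galactose ahead of Galk, were mostly rare. CG10467, the abundant one, had 561.8, 526.4 and 592 normalized counts in yw, L(3)mbt mutants and Lint-O mutants and was not called. CG32444 had 7 to 21 raw counts in yw, 31 to 36 in L(3)mbt mutants and 14 to 19 in Lint-O mutants. Its log2 fold change of 1.34 (SE 0.43, DESeq2 adjusted p = 0.00632) in L(3)mbt mutants did not hold when any 1 of 8 libraries was left out, with adjusted p up to 0.0575 without yw replicate 1. CG10996 had at most 16 counts in a library and was not called. CG32445 had 0 counts in all yw libraries and at most 3 in any other and was not tested, and CG4988 had none.

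Wider lists of 40 genes held the Leloir neighbours, galactosidases, hexose phosphate and storage enzymes, and nucleotide sugar enzymes with their users. The lists were chosen with earlier results of these data known. Counts of calls and adjusted p values of list genes therefore describe these libraries and are not independent support. No reads were counted for 3 of them, of which frc and beta4GalNAcTB share all their exon bases with other genes. In L(3)mbt mutants, 10 of 34 tested genes were called higher and 4 lower, beside 18.1% and 12.6% of all tested genes. In Lint-O mutants, 6 of 34 were higher and 2 lower, beside 13.4% and 7.52%. The list median log2 fold change was 0.10 in L(3)mbt mutants and 0.12 in Lint-O mutants, beside -0.01 and 0.01 over all tested genes. With total counts as size factors, calls over all genes shifted to 2261 higher and 914 lower in L(3)mbt mutants, from 1936 and 1344, and to 1665 and 473 in Lint-O mutants, from 1396 and 784. Of the list genes, 6 were called higher in both mutants and Hex-A was called lower in both. The share of all genes called in both mutants was not computed, and both comparisons use the same 3 yw libraries.

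**Figure D3:**
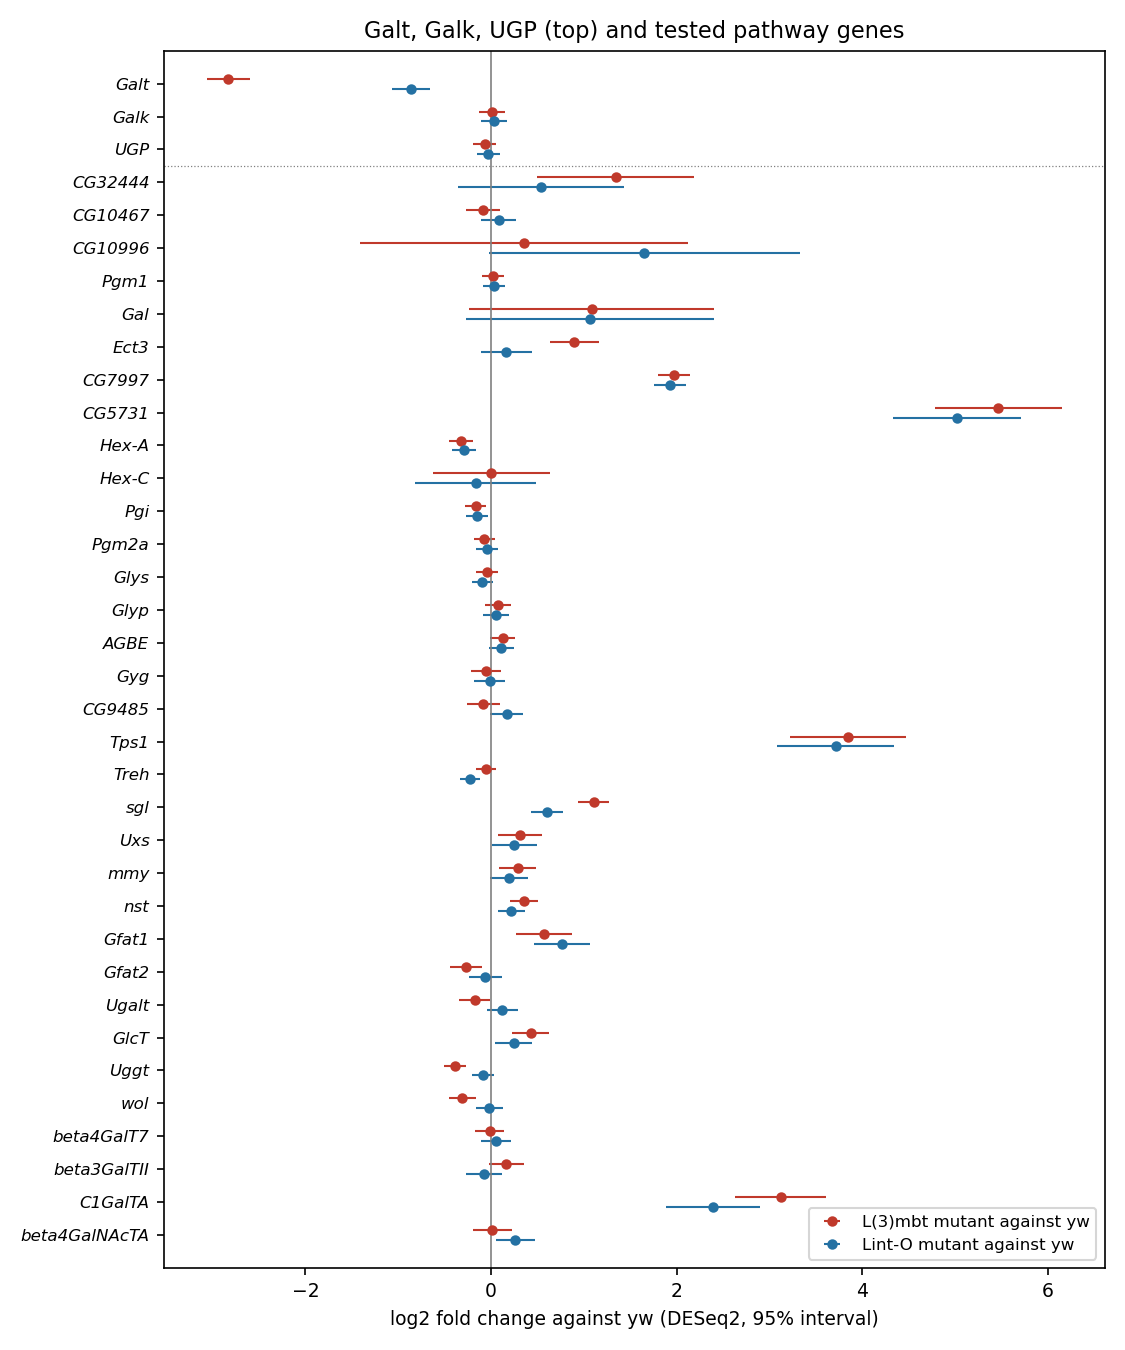
Log2 fold change against yw with its 95% interval (x axis) of Galt, Galk and UGP (above the dotted line) and 33 of the tested genes of the lists (y axis), in L(3)mbt mutants (red) and Lint-O mutants (blue). Galt lies at -2.83 and -0.86, most enzymes lie near 0, and CG5731, Tps1 and C1GalTA lie above 2 in both mutants.

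Of 4 galactosidase genes, whose enzymes split galactose from larger molecules, 3 rose in L(3)mbt mutants and 2 in Lint-O mutants, beside 18.1% and 13.4% of all tested genes. CG5731, which is related to alpha-galactosidases, had 5, 8 and 7 raw counts in yw, 314, 290 and 325 in L(3)mbt mutants and 225, 191 and 169 in Lint-O mutants. Its log2 fold change was 5.46 (SE 0.35, DESeq2 adjusted p = 3.12e-53) in L(3)mbt mutants and 5.02 (SE 0.35, adjusted p = 2.75e-44) in Lint-O mutants. CG7997, of the same enzyme family, rose from 306.1 normalized counts in yw to 1203 in L(3)mbt mutants and 1164 in Lint-O mutants, 3.92-fold and 3.79-fold (DESeq2 adjusted p = 1.58e-110 and 2.65e-103). Neither gene's groups overlapped with yw, a trait whose share over all genes was not computed.

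The lysosomal beta-galactosidase gene Ect3 differed between the mutants. It had 184.3 to 223.5 normalized counts in yw, 334 to 412.5 in L(3)mbt mutants and 204.8 to 243.9 in Lint-O mutants. The rise was called in L(3)mbt mutants (log2 fold change 0.90, SE 0.14, DESeq2 adjusted p = 3.66e-10) and not in Lint-O mutants (0.16, adjusted p = 0.434), where libraries overlapped with yw. The direct comparison of the mutants gave 0.73 (SE 0.14, DESeq2 adjusted p = 1.24e-06). The other beta-galactosidase gene, Gal, had 5 to 14 counts in a library and was not called.

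Most enzymes of hexose phosphate and storage metabolism were not called. In L(3)mbt mutants 1 of 11 tested genes was higher and 1 lower, beside 18.1% and 12.6% of all tested genes. In Lint-O mutants 1 was higher and 2 lower, beside 13.4% and 7.52%. Tps1, the trehalose-6-phosphate synthase, rose from 9.97 normalized counts in yw to 143.7 in L(3)mbt mutants (14.3-fold, DESeq2 adjusted p = 8.00e-32) and 131.6 in Lint-O mutants (13.1-fold, adjusted p = 3.36e-29). The hexokinase gene Hex-A fell by 0.32 and 0.30 on the log2 scale (SE 0.07 each, DESeq2 adjusted p = 8.84e-06 and 6.55e-05). The trehalase gene Treh was lower in Lint-O mutants (log2 fold change -0.23, SE 0.06, DESeq2 adjusted p = 0.000479), a call lost without Lint-O mutant replicate 1 (adjusted p = 0.0117), and without that library 1 of the 34 list genes was called lower in place of 2. Pgi, Pgm2a, Glys, Glyp, AGBE, Gyg, CG9485 and Hex-C were not called in either mutant, and the testis hexokinase genes Hex-t1 and Hex-t2 were too low to test.

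Among 14 tested genes of nucleotide sugar metabolism, 5 were higher and 3 lower in L(3)mbt mutants, beside 18.1% and 12.6% of all tested genes. In Lint-O mutants 3 were higher and 0 lower, beside 13.4% and 7.52%. C1GalTA, the galactosyltransferase that builds core 1 O-glycans from UDP-galactose, rose from 20.3 normalized counts in yw to 180.1 in L(3)mbt mutants (log2 fold change 3.12, SE 0.25, DESeq2 adjusted p = 6.76e-34) and 108.9 in Lint-O mutants (2.39, SE 0.26, adjusted p = 5.37e-19). The UDP-glucose dehydrogenase gene sgl rose from 867.2 to 1860 (log2 fold change 1.10, SE 0.09, DESeq2 adjusted p = 1.45e-36) and to 1315 (0.60, SE 0.09, adjusted p = 7.31e-11). Both had non-overlapping groups in the order yw, Lint-O mutant, L(3)mbt mutant, the reverse of Galt. The list genes CG5731, CG32444 and nst showed the same order without overlap. Pgi, mmy, Uxs, Gal and Ugalt, not called against yw in either mutant, had no overlap with yw either. The share of all genes without overlap was not computed.

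**Figure D4:**
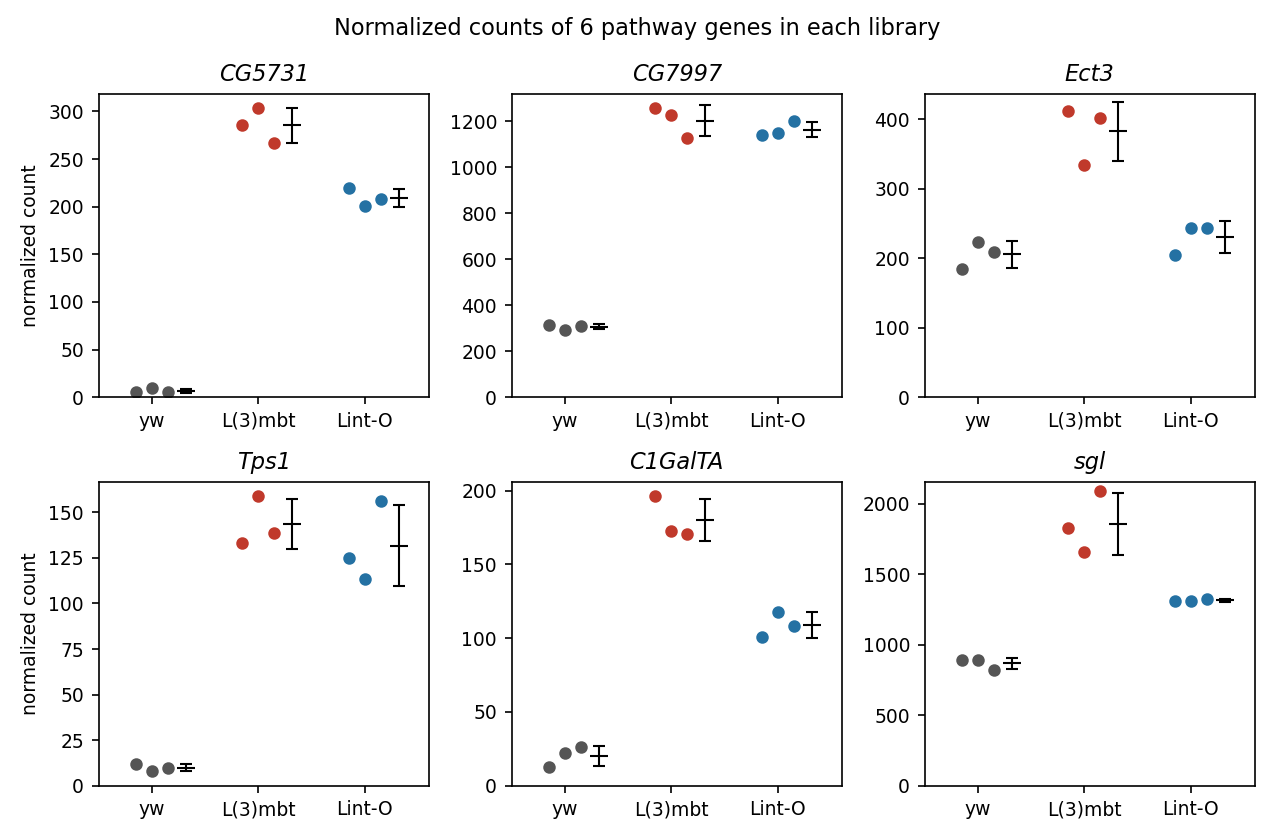
Normalized counts (y axis) of CG5731, CG7997, Ect3, Tps1, C1GalTA and sgl in each library (points) of the 3 groups (x axis), with bars for mean and SD of 3 libraries. All but Ect3 lie above yw in every library of both mutants, and Ect3 only in L(3)mbt mutants.

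Smaller changes were seen in genes that make UDP-N-acetylglucosamine or use UDP-glucose. Gfat1, an aminotransferase that starts the hexosamine pathway, had log2 fold changes of 0.57 (DESeq2 adjusted p = 0.000862) and 0.76 (adjusted p = 7.97e-06), the first of which was lost without L(3)mbt mutant replicate 1 (adjusted p = 0.0138) or 2 (0.0184). The phosphoacetylglucosamine mutase gene nst (0.35) and the ceramide glucosyltransferase gene GlcT (0.43) were higher in L(3)mbt mutants (DESeq2 adjusted p = 1.47e-05 and 0.000154), and neither was called in Lint-O mutants (0.22 and 0.24). Lower in L(3)mbt mutants were Uggt, which reglucosylates misfolded glycoproteins (-0.39, DESeq2 adjusted p = 1.14e-09), the dolichyl-phosphate glucosyltransferase gene wol (-0.31, adjusted p = 0.000116) and Gfat2 (-0.27, adjusted p = 0.00881). The Gfat2 call was lost without any 1 of 7 libraries, with adjusted p up to 0.114 without yw replicate 3.

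In the direct comparison of the mutants, 3 of 33 tested list genes were higher in L(3)mbt mutants (Ect3, sgl and C1GalTA) and 3 lower (Uggt, wol and Ugalt), beside 9.22% and 5.71% of all tested genes. Ugalt, the UDP-galactose transporter, was called in this comparison alone, at -0.30 (SE 0.09, DESeq2 adjusted p = 0.00361), with log2 fold changes against yw of -0.18 and 0.12. Leaving out replicate 1 or 2 of the L(3)mbt mutant, or replicate 2 of the Lint-O mutant, the count of lower genes went from 3 to 1. The C1GalTA difference of 0.73 (adjusted p = 0.00157) was lost without any 1 of 4 libraries, with adjusted p up to 0.0404 without L(3)mbt mutant replicate 1.

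The genes with the most similar pattern were picked by the root mean square difference from each member over 9 libraries, on log2(normalized count + 1) relative to the yw mean, among the 8933 genes, and are given as a description. Nearest to Galt was mth, which encodes a G protein-coupled receptor known from longevity studies, at 0.229. It had 950 to 996.3 normalized counts in yw, 148.7 to 168.5 in L(3)mbt mutants and 599.7 to 633 in Lint-O mutants. The next were thw (0.304), CG30116 (0.329), CG4962 (0.502) and the cuticle protein gene Cpr49Ac (0.536). In L(3)mbt mutants CG30116 had only 5 to 17 raw counts and Cpr49Ac 7 to 23. CG30116 was not called in Lint-O mutants. Galk and UGP had far closer neighbours, as many genes were level: Scox, Srp19, Polr2G, eRF1 and Kap-alpha1 lay within 0.042 of Galk, and Mtch, Vps29, Pef, ArfGAP1 and Hat1 within 0.032 of UGP.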

How the data were processed

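The authors excluded ribosomal RNA reads, mapped the rest to dm6 with HISAT2 and, per the labels' processing notes, counted reads per gene with featureCounts (versions not given in the sources used here). The deposited table holds raw counts for 17611 genes in 9 libraries, and no column was left unassigned. Symbols, positions and exons came from the Ensembl annotation of the same assembly, which matched 17559 identifiers and missed 52. All 9 libraries were fitted with DESeq2 1.42.0 (R 4.3.3), as in the study's methods, at a Benjamini-Hochberg adjusted p under 0.01. The fit was run on counts simulated from its own means and dispersions, which cannot show how it behaves where its model does not hold. At an adjusted p under 0.01 it recovered 94% of log2 changes of -2 in L(3)mbt mutants against yw. Of changes of 0.25 in size it recovered 12% to 29.2% in the 2 other comparisons. Alternatives were edgeR 4.0.16, other size factors and filters, fewer samples, a replicate block and each library left out. Totals differed by depth, and intervals for low genes are wider. Within a group, libraries differed by more than counting noise (chi-square per degree of freedom 4.72 to 20.4). The study describes its RNA-seq samples as biological triplicates. The number of animals in each is not given in the sources used here.

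RPKM uses exon bases covered by no other gene. Named genes included the members, list genes called against yw, Pgm1, untested Leloir genes, the nearest 2 genes on each side of a member, and the 5 genes with the most similar pattern. Also named were the mutated genes, the markers, the genes of the 20 kb window around Galt, and list genes not called against yw. Members and lists were chosen with earlier results of these data known. Sequences were not used here, and 1 list gene is counted but not reported by name here.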

Additional observations from a re-analysis of the deposited data

Results flagged for a closer look

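Among the list genes and the nearest 2 genes on each side of Galt, Galk and UGP, 9 were called in the direct DESeq2 comparison of the mutants. Over all tested genes, 9.22% were called higher and 5.71% lower in this comparison. Ugalt was not called against yw in either mutant. Values are given as L(3)mbt mutants against Lint-O mutants on the log2 scale. PGRP-LF differed by 1.07, Ect3 and C1GalTA by 0.73 each and sgl by 0.50, all higher in L(3)mbt mutants. Spn27A differed by -0.61, CG34310 by -0.56, Ugalt and Uggt by -0.30 each and wol by -0.29. The Ugalt, wol and C1GalTA differences were lost without some single libraries.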

How the results depend on the processing

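The values of Galt, Galk and UGP stayed within the spread between libraries under every alternative run, within which the near-0 values of Galk and UGP changed sign in some settings. For Galt the log2 fold change ranged from -2.92 to -2.77 in L(3)mbt mutants, from -0.93 to -0.80 in Lint-O mutants and from -2.06 to -1.90 between the mutants when 1 library was left out. Counts of list genes moved by over 1.5 times in these cases. With at least a 2-fold change required, 6 genes were higher and 0 lower in L(3)mbt mutants, 0 were lower in Lint-O mutants, and 0 were higher and 0 lower between the mutants. At an adjusted p under 0.05, 5 were higher between the mutants. With 1 library left out, 1 to 2 genes were lower in Lint-O mutants and 1 to 3 were lower between the mutants. Same-numbered libraries did not deviate together (correlations -0.167 to 0.116, 1 of 9 pairs over 0.1). With the replicate block, Galt had -2.83, -0.86 and -1.97, and 9 list genes were higher and 5 lower in L(3)mbt mutants. The block ended the calls of CG32444 and of the C1GalTA difference. Among called list genes and called genes of the nearest 2 on each side of a member, 37 of 592 recomputed calls were lost. These were calls of C1GalTA, CG32444, Gfat1, Gfat2, Treh, Ugalt and wol, and no direction turned. These single-gene alternatives were chosen after seeing the data. Over all genes, edgeR called 853 lower between the mutants, where DESeq2 called 519, and total counts as size factors gave 473 lower in Lint-O mutants, where the usual factors gave 784. Leaving out 1 library lowered the 784 to 517 (yw replicate 2), 500 or 520 (replicates 2 and 3 of the Lint-O mutant), and the 519 to 309 (replicate 1 of the L(3)mbt mutant) or 313 (replicate 2 of the Lint-O mutant). The cause of each loss was not tested. Genes with all exon bases shared, such as cup, have no counts at any depth, and genes near 10 counts allow only wide intervals.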
